A study of Mus musculus with 6 samples.

Results

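The genes described here are interferon-stimulated genes outside the OAS, guanylate-binding protein and PYHIN families: antiviral effectors, RNA sensors, the ISG15 system, the interferon-induced PARPs and the transcription factor ISGF3. They were chosen by name, as a list of 48 symbols, with earlier results of these data known. Of these, 47 were matched among the 25751 gene rows of the count table. The expression of Ifi44l was not analysed here. All 47 passed the filter on low counts, so every matched member was tested. The RNA came from wild-type primary mouse cells labelled myeloid cells, as 3 control libraries and 3 from cells given TMAO (trimethylamine N-oxide), a metabolite made in the liver from trimethylamine that gut bacteria release. All 6 were labelled 24 h, and the sources used here give no dose of TMAO, mouse strain or age. The count columns of the controls are named Control and those of the treated cells T-BMDM, and the labels do not explain the difference. The labels do not say whether replicates are separate cultures or mice, so the p-values reflect the spread among these libraries alone, which may be technical.

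Interferon-stimulated genes are switched on when type I interferon binds its receptor, IFNAR1 with IFNAR2. The kinases JAK1 and TYK2 then phosphorylate STAT proteins, which join IRF9 to form ISGF3, and ISGF3 binds the interferon-stimulated response element (ISRE) in the promoters of its targets. Macrophages keep a low tonic output of these genes without infection, and IRF7, itself a target, amplifies interferon production. The products block viral entry, translation and replication, sense viral nucleic acid, or feed back on the pathway.

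RefSeq promoter windows, each 250 bases before and 50 after an annotated start in build GRCm38.p6, were found for 38 of the 48 members. The core of the ISRE, searched on both strands as GAAA, then 2 bases of any kind, then GAAA, was in the windows of 14 of the 38. In 11 members a match lay wholly upstream of the start, and in Ddx58, Ifih1 and Eif2ak2 the only match lay past it. Over all 27025 genes with a window, 3.99% held it, and over the genes tested, 3.93%. A second interferon motif, searched as TTCNNNGAA (the same on both strands, and able to share bases with the ISRE core), was in 7 of the 38 members and 9.55% of all genes. The sequences below show matches in 7 members, picked with their values known: Isg15, Rsad2 and Ifit1 for small differences between the groups, Ifit3, Slfn8 and Ddx60 for larger ones, and Ifit3b as a near-identical copy. Each is read 5′ to 3′ on the gene's strand with the ISRE core in capitals. They end before the transcript start, and coordinates are those of GRCm38.p6, which is not the authors' build.

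Isg15 (chr4:156200850-156200909, minus strand): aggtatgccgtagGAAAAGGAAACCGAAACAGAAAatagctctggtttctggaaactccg
Rsad2 (chr12:26456538-26456597, minus strand): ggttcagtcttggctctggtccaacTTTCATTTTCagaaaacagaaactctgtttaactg
Ifit1 (chr19:34640779-34640838, plus strand): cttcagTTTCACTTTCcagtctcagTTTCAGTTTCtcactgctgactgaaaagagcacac
Ifit3 (chr19:34583382-34583441, plus strand): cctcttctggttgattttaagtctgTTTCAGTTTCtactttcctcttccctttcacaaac
Ifit3b (chr19:34607778-34607837, plus strand): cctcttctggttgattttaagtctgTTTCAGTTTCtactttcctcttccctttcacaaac
Slfn8 (chr11:83020824-83020883, minus strand): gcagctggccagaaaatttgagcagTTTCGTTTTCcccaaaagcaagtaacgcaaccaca
Ddx60 (chr8:61928043-61928086, plus strand): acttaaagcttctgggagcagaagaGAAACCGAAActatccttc

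The printed stretches, which surround only the match nearest the start, hold 3 overlapping matches in Isg15, a pair in Ifit1 and 1 in each other. Over the whole windows, Isg15 had 3 matches, Ifit1, Ifit3, Ifit3b and Ddx60 had 2 each, and Rsad2 had 1. Slfn8 had 2, counted over its 2 windows. The stretches of Ifit3 and Ifit3b were alike at all 60 bases. A match is a description of these letters, and binding was not measured. Of the 33 members with a window that were called lower with TMAO, 13 held the core. Of the 4 tested members with a window that were not called lower, Isg15 held it. Ifi44l, the remaining member with a window, was not tested for expression and did not hold it.

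The question was which of these transcripts differ between TMAO and control. Most fell: 42 of 47 were lower and 1 was higher. The call was an adjusted p below 0.05 in the quasi-likelihood test of edgeR, adjusted by Benjamini-Hochberg over all 14626 genes tested. Over all genes tested, 32.7% were called lower and 33.0% higher, 65.7% in all. The median log2 fold change, TMAO minus control, was -1.66 over the members and 0.01 over all genes tested. Of the members, 36 were called at least 2-fold lower, against 14.7% of all genes, and 12 at least 4-fold lower, against 3.30%. None was called at least 2-fold higher, against 15.7%. In 42 members every TMAO library was below every control library in CPM (counts scaled by library size and TMM factors), where 35.4% of all genes tested were so placed. Mx2 and Isg20 had every TMAO library above every control library, against 35.6% of all genes. In either direction 71.0% of all genes did not overlap. Summed over the members, the level was 6301 to 7856 CPM in the controls and 2092 to 2155 CPM with TMAO. These are bulk samples, in which fewer cells of a type and less RNA per cell cannot be told apart.

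**Figure D1:**
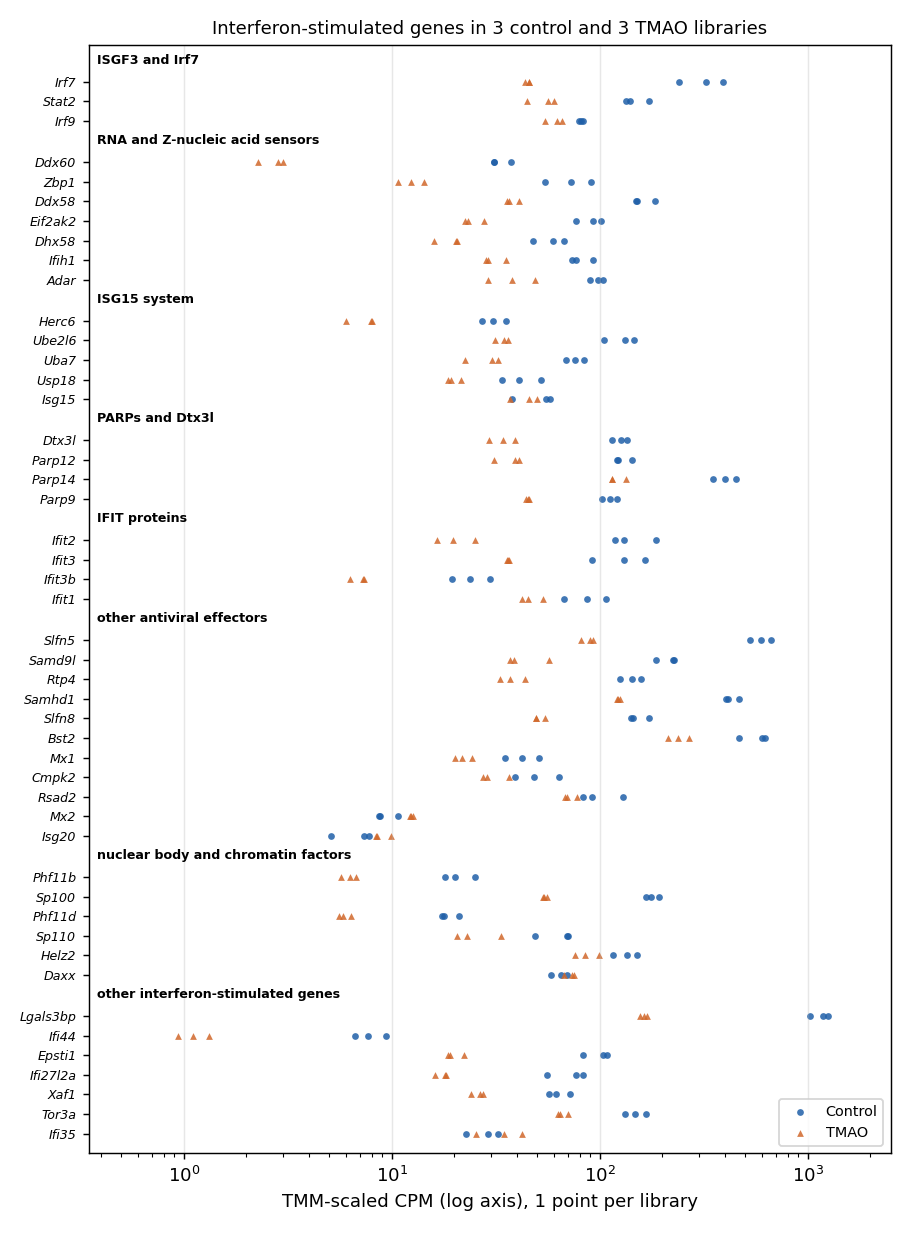
TMM-scaled CPM of the 47 members on a log axis, 1 point per library, controls as circles and TMAO as triangles, grouped by role. In 42 members the 3 triangles lie left of the 3 circles. Isg15, Daxx and Ifi35 overlap, and Mx2 and Isg20 have the triangles on the right.

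**Figure D2:**
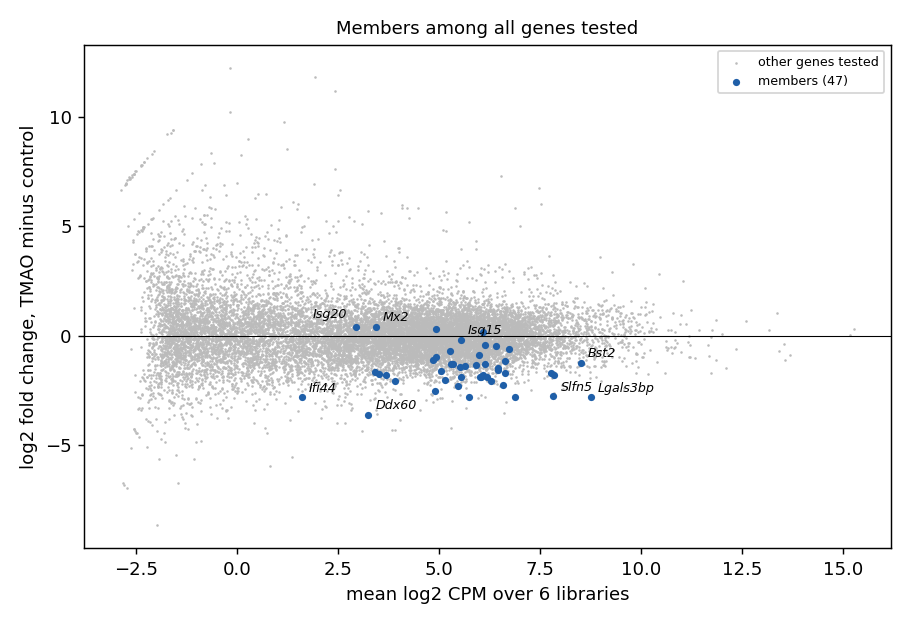
Log2 fold change (TMAO minus control) of all 14626 genes tested against their mean log2 CPM, with the 47 members as large points. The members lie mostly below 0, down to Ddx60, and Isg20, Mx2, Ifi35 and Daxx lie just above it.

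The 6 libraries held 37759007 to 41735109 counts. Libraries of a group correlated at r = 0.9828 to 0.9901 across genes on log2 CPM, and libraries of different groups at 0.8972 to 0.9299. Of 12 macrophage markers, 5 fell and 4 rose, where 32.7% of all genes tested fell and 33.0% rose. Their summed level was 44671 to 49608 CPM in controls and 43116 to 52445 with TMAO, none at 0 in either group. Single macrophage markers moved far in both directions under this sum: Mertk was 9.94-fold and Fcgr1 4.19-fold lower, and Cd14 7.14-fold higher. All 10 monocyte markers rose (sum 422 to 521 CPM in controls, 1434 to 1489 with TMAO), as did 14 of 15 neutrophil markers (269 to 292 CPM and 4035 to 5256 CPM) and all 8 mitosis genes tested (44.6 to 47.8 CPM and 297 to 346 CPM). None of these 4 lists had a gene at 0 in all libraries of a group. Plasmacytoid dendritic cells are strong interferon producers: 5 of their 7 tested markers rose and 1 fell, their sum was 63.5 to 83.9 CPM and 58.4 to 64.7 CPM, and Siglech was at 0 in all controls. Of 8 tested conventional dendritic cell markers 5 rose and 1 fell (59.8 to 61.9 CPM and 38.8 to 45.5 CPM, Cd209a at 0 in controls), and of 7 B cell markers 6 rose (9.06 to 11.4 CPM and 33.1 to 35.5 CPM, Pax5 and Ebf1 at 0 in controls). The summed level of 8 fibroblast and endothelial markers was lower with TMAO, like the members, at 93.1 to 110.01 CPM in controls and 29.2 to 35.5 CPM with TMAO, mostly through Vwf (94.7 ± 8.97 CPM and 23.7 ± 3.65 CPM, n = 3 per group), while of 7 tested 1 was called lower and 1 higher. That of 9 T and NK cell markers was 10.9 to 13.01 CPM and 3.88 to 5.53 CPM, mostly through Cd4 (11.6 ± 1.06 CPM and 2.53 ± 0.718 CPM), with 1 of 2 tested lower and 1 higher, Cd3d, Cd3g, Nkg7, Ncr1 and Prf1 at 0 in controls and Cd3e at 0 with TMAO. The part of these other cells in the members' differences was not tested.

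Among the upstream genes, the ligand was near the detection limit and both chains of the receptor fell. Ifnb1, the gene of interferon beta, had 4, 0 and 2 counts in Control 1 to 3 and 6, 7 and 8 in TMAO 1 to 3, too few to be tested. Of the 14 interferon ligand genes listed, 3 were matched in the table and none passed the filter. Ifnar1, a receptor chain, was at 309, 289.9 and 338 CPM in Control 1 to 3 and 198, 169 and 194 CPM in TMAO 1 to 3, a log2 fold change of -0.74 (SE 0.10, adjusted p = 7.22e-05 in edgeR). Its partner Ifnar2 was at 122, 129 and 121 CPM and at 111, 93.1 and 103 CPM (log2 fold change -0.27, SE 0.09, adjusted p = 0.0223 in edgeR). Both chains were lower in every TMAO library than in any control, as were 35.4% of all genes tested. Of 9 genes for interferon receptors, JAK kinases and STATs, 7 fell and 1 rose, against 32.7% and 33.0% of all genes tested. Their log2 fold changes had a median of -0.55.

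Of the ISGF3 genes on the list, Stat2 and Irf9 both fell, with log2 fold changes of -1.47 and -0.42. Stat2, the subunit found mainly in this complex, was at 172, 134 and 140.1 CPM in Control 1 to 3 and 60.1, 44.8 and 56.3 CPM in TMAO 1 to 3 (log2 fold change -1.47, SE 0.13, adjusted p = 5.81e-06 in edgeR). Irf9, its DNA-binding subunit, was at 83.5, 81.2 and 79.5 CPM and then 65.8, 54.8 and 62.1 CPM, a log2 fold change of -0.42 (SE 0.09, adjusted p = 0.00248 in edgeR). No library of one group entered the range of the other for either gene, as in 71.0% of all genes tested. Irf7, the factor that amplifies interferon production, fell further: it was at 391, 324 and 239.6 CPM in the controls and at 45.7, 43.9 and 45.5 CPM with TMAO (log2 fold change -2.82, SE 0.16, adjusted p = 2.53e-07 in edgeR). The controls of Irf7 spread widely and the TMAO libraries hardly at all. Of 6 IRF genes outside the members, 4 rose and 1 fell, against 33.0% and 32.7% of all genes tested. Irf1, also a target of interferon gamma and NF-kB, rose from 57.2 ± 5.69 to 119 ± 7.77 CPM (mean ± SD, n = 3 per group; adjusted p = 7.91e-06 in edgeR), and Irf3, which acts directly below the sensors, from 33.7 ± 2.68 to 56.4 ± 6.26 CPM (adjusted p = 0.000172 in edgeR).

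All 7 sensors and effectors of foreign RNA or Z-form nucleic acid fell at least 2-fold, against 14.7% of all genes tested. Their median log2 fold change was -1.88. Ddx58 encodes RIG-I, which detects RNA with a 5′ triphosphate, and was at 184, 149 and 152 CPM in Control 1 to 3 and 40.8, 36.0 and 36.7 CPM in TMAO 1 to 3 (log2 fold change -2.09, SE 0.11, adjusted p = 1.42e-07 in edgeR). Ifih1 encodes MDA5, the sensor of long double-stranded RNA, and was at 93.0, 76.8 and 73.2 CPM and at 35.4, 29.1 and 28.2 CPM (log2 fold change -1.39). Dhx58 encodes LGP2, a regulator of both, and was at 67.3, 59.3 and 47.8 CPM and at 20.5, 20.4 and 16.01 CPM (log2 fold change -1.62). The 3 RIG-I-like receptors were thus separated between the groups in all libraries, as were 71.0% of all genes tested. Ddx60, a helicase linked to RIG-I signalling, had the lowest log2 fold change of the 47: 37.4, 30.9 and 31.2 CPM in the controls against 3.002, 2.83 and 2.27 CPM with TMAO, 12.3-fold lower (log2 fold change -3.61, SE 0.15, adjusted p = 2.9e-08 in edgeR). Zbp1, which senses Z-form nucleic acid and can start necroptosis, was at 91.0, 72.9 and 54.3 CPM and at 10.7, 14.3 and 12.3 CPM (log2 fold change -2.55, SE 0.18). Control 1 was the highest and Control 3 the lowest of its controls, and all stood far above the TMAO libraries.

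Eif2ak2 encodes PKR, the kinase that stops translation when it binds double-stranded RNA. It was at 101, 77.0 and 92.3 CPM in the controls and 27.8, 22.4 and 23.2 CPM with TMAO (log2 fold change -1.88). Adar, the editing enzyme that marks cellular double-stranded RNA as self, was at 104, 89.5 and 98.5 CPM and at 48.9, 29.1 and 37.8 CPM (log2 fold change -1.33, SE 0.16). Its TMAO libraries varied more than its controls, by 25.7% of their mean against 7.39%. Among 14 genes that lead to interferon induction and are not members, 7 fell and 3 rose, with a median log2 fold change of -0.26. In the whole table, 32.7% of the genes tested fell and 33.0% rose. Tlr3, the endosomal receptor of double-stranded RNA, fell from 21.0 ± 2.04 to 2.38 ± 0.565 CPM (n = 3 per group, adjusted p = 2.81e-07 in edgeR), and Myd88, an adaptor shared by most Toll-like receptors, rose from 80.2 ± 8.03 to 155 ± 8.74 CPM (adjusted p = 1.36e-05 in edgeR).

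In the ISG15 system, 4 genes for enzymes fell, where 32.7% of all genes tested did, and Isg15 itself missed the threshold. Isg15 encodes a ubiquitin-like protein that is attached to other proteins and also secreted. It was at 57.6, 55.2 and 37.9 CPM in Control 1 to 3 and at 37.1, 50.1 and 45.5 CPM in TMAO 1 to 3, with 2 of the TMAO libraries inside the control range (log2 fold change -0.18, SE 0.16, adjusted p = 0.346 in edgeR). Uba7, the enzyme that activates ISG15, was at 83.8, 75.8 and 68.6 CPM and at 32.3, 22.6 and 30.2 CPM (log2 fold change -1.42, SE 0.14). Ube2l6, the conjugating enzyme, was at 146, 133 and 105 CPM and at 31.2, 36.3 and 34.6 CPM (log2 fold change -1.91, SE 0.13). Herc6, the mouse ligase, was at 35.4, 27.2 and 30.8 CPM and at 7.997, 7.92 and 6.05 CPM (log2 fold change -2.09, SE 0.15). The transcripts of these 3 enzymes were thus lower in all TMAO libraries than in any control, as were 35.4% of all genes tested. Usp18, which removes ISG15 and also damps the interferon receptor, was at 52.2, 41.1 and 33.7 CPM and at 18.6, 21.4 and 19.3 CPM (log2 fold change -1.10, SE 0.15, adjusted p = 9.66e-05 in edgeR). Isg15 was called lower without Control 3 (log2 fold change -0.36, adjusted p = 0.0431 in edgeR), whose value was the lowest of the controls, and after removal of the trend on transcript length (log2 fold change -0.66, adjusted p = 0.00066 in edgeR). Its adjusted p ran from 0.00066 to 1 over the alternatives. Here and below, the alternatives include a test against a fold of 1.5, a stricter question than whether there is any difference. That test gave the upper end for Isg15. The fit without a filter on low counts gave the lower ends for Rsad2 and Helz2. Its adjusted p for Lgals3bp was 1.18e-117 in edgeR, against 1.31e-08 in the reported fit, so these lower ends add no support.

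The negative regulators of the pathway that are not members moved both ways: of 7, 4 rose and 3 fell. Over all genes tested, 33.0% rose and 32.7% fell. Socs3, an inhibitor of cytokine receptor signalling, rose from 26.8 ± 1.87 to 87.8 ± 8.0 CPM (n = 3 per group, adjusted p = 3.69e-07 in edgeR). Ptpn2, a phosphatase of JAK and STAT proteins, rose from 24.1 ± 1.55 to 65.0 ± 9.99 CPM (adjusted p = 3.57e-06 in edgeR).

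Parp9, Parp12, Parp14 and Dtx3l all fell within a narrow range of log2 fold change, -1.88 to -1.31, where 32.7% of all genes tested fell. PARP9, PARP12 and PARP14 belong to the enzymes that bind or transfer ADP-ribose, and DTX3L is the ubiquitin ligase that pairs with PARP9. Parp14 was at 453, 350.5 and 401 CPM in Control 1 to 3 and 134, 115 and 115 CPM in TMAO 1 to 3 (log2 fold change -1.73, SE 0.11, adjusted p = 6.93e-07 in edgeR). Parp12 was at 143, 121 and 122 CPM and at 40.8, 31.1 and 39.1 CPM (log2 fold change -1.79). Parp9 was at 121, 112 and 102 CPM and at 45.8, 44.2 and 45.1 CPM (log2 fold change -1.31, SE 0.09). These 3 were separated between the groups in every library, as were 71.0% of all genes tested. Dtx3l was at 135, 114 and 127 CPM and at 38.9, 29.2 and 34.2 CPM (log2 fold change -1.88, SE 0.12). Parp14, Dtx3l and Parp9 are neighbours on the RefSeq assembly GRCm38.p6, with no other protein-coding gene or transcribed pseudogene between them. Reads of overlapping neighbours cannot be told apart without a stated strand setting.

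The IFIT genes, whose proteins bind foreign RNA ends and block translation, fell by different amounts. Ifit2 was at 187, 130.3 and 119 CPM in the controls and 25.2, 19.6 and 16.5 CPM with TMAO (log2 fold change -2.83, SE 0.20, adjusted p = 9.93e-07 in edgeR). Ifit3 was at 165, 131 and 92.1 CPM and at 36.2, 35.6 and 36.4 CPM (log2 fold change -1.84, SE 0.18). Its copy Ifit3b was at 29.6, 23.9 and 19.5 CPM and at 7.24, 7.34 and 6.28 CPM (log2 fold change -1.80, SE 0.16). Counting may have divided or dropped reads of this pair, so their separate levels are uncertain. Ifit1, which binds RNA lacking the cap methylation of the host, was at 108, 86.6 and 67.7 CPM and at 42.4, 53.3 and 45.3 CPM (log2 fold change -0.89, SE 0.16, adjusted p = 0.000575 in edgeR). All 4 had Control 1 as the highest and Control 3 as the lowest control. No TMAO library reached Control 3, and 35.4% of all genes tested had every TMAO library below every control.

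**Figure D3:**
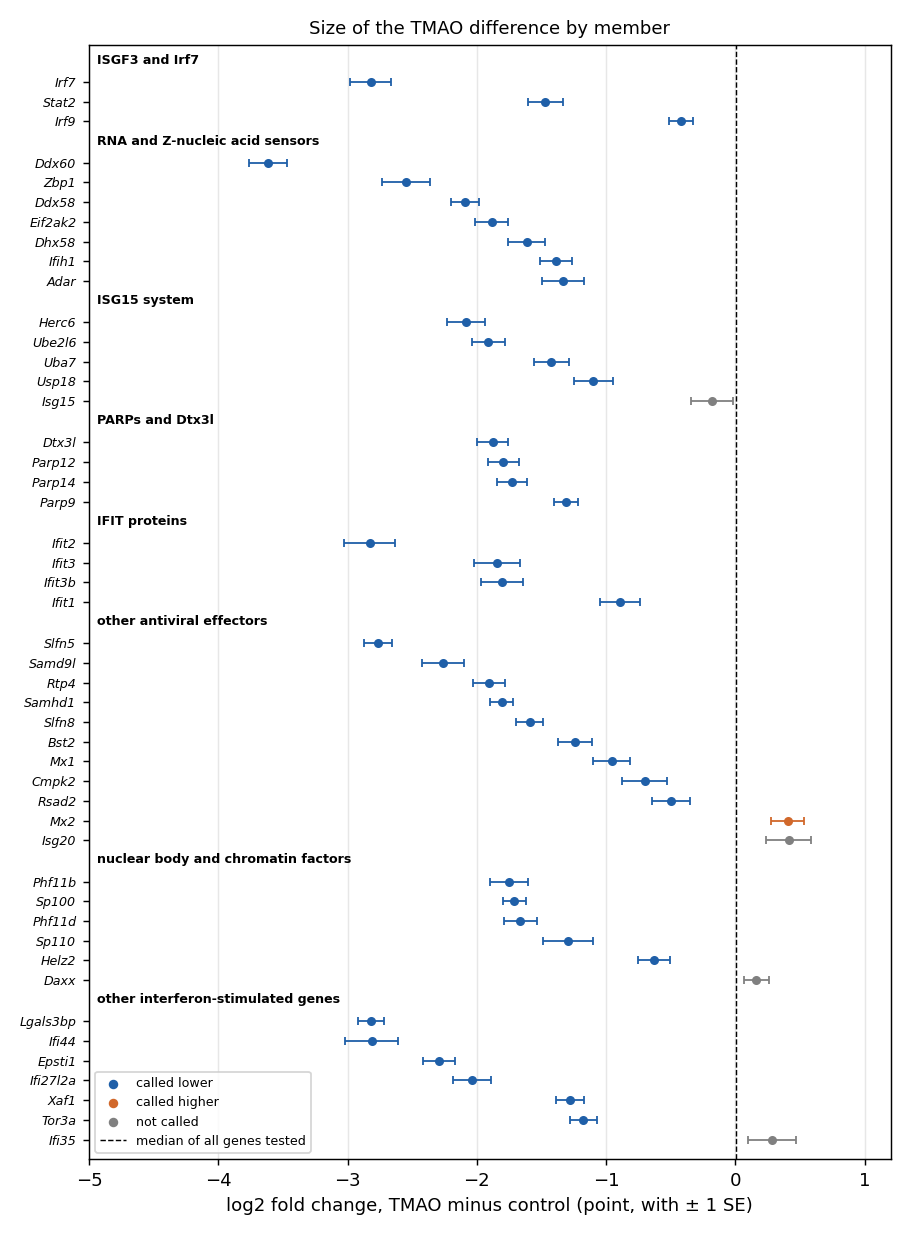
Log2 fold change (TMAO minus control) of each member with ± 1 SE from edgeR, grouped by role and coloured by call. The sensors and PARPs lie wholly below -1, whereas the antiviral effectors spread from Slfn5 at -2.77 to Isg20 at 0.41. The dashed line is the median of all genes tested, 0.01.

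Of the other 11 antiviral effectors, 9 fell and 1 rose, against 32.7% and 33.0% of all genes tested. They spread more widely than the groups above. Slfn5, a Schlafen protein that restricts viral transcription, was at 669, 526 and 594 CPM in Control 1 to 3 and 89.5, 92.6 and 81.0 CPM in TMAO 1 to 3 (log2 fold change -2.77, SE 0.11, adjusted p = 2.63e-08 in edgeR). Slfn8, another Schlafen gene, was at 173, 142 and 144 CPM and at 54.3, 49.1 and 49.1 CPM (log2 fold change -1.59). Samd9l, a restriction factor of poxviruses, was at 224, 187 and 227 CPM and at 57.3, 37.1 and 38.6 CPM (log2 fold change -2.26, SE 0.16). It was the single member with Control 3 as the highest control. Samhd1, which depletes the nucleotides that reverse transcription needs, was at 468, 413 and 406 CPM and at 122, 125 and 121 CPM (log2 fold change -1.81, SE 0.09). Rtp4, a receptor transporter protein induced by interferon, was at 158, 144 and 125 CPM and at 33.3, 43.5 and 36.9 CPM (log2 fold change -1.91). Bst2 encodes tetherin, which holds budding virus at the cell surface, and was at 624, 606 and 468 CPM and at 213, 269 and 236 CPM (log2 fold change -1.24, SE 0.13). Per kilobase of the longest annotated transcript, Bst2 had the highest level of the 47 in both groups, 714 CPM per kb in controls and 302 with TMAO, above Lgals3bp at 494 and 69.9. Bst2 thus kept the first place per length after its fall.

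The genes of the antiviral effectors viperin, CMPK2 and ISG20 and of the 2 MX proteins showed the smallest differences of these 11. Rsad2 encodes viperin, which makes a chain-terminating nucleotide, and was at 129, 92.2 and 82.9 CPM in the controls and 77.9, 69.6 and 67.8 CPM with TMAO (log2 fold change -0.50, SE 0.15, adjusted p = 0.0133 in edgeR). Its neighbour Cmpk2, a nucleotide kinase, was at 63.8, 48.2 and 39.0 CPM and at 36.6, 27.3 and 28.8 CPM (log2 fold change -0.70, SE 0.17, adjusted p = 0.00481 in edgeR). In both genes the groups came close without overlapping, and Control 1 stood above the other controls. Without Control 1, Rsad2 lost its call (log2 fold change -0.30, adjusted p = 0.0545 in edgeR). Rsad2 also lost it without TMAO 3 (-0.46, adjusted p = 0.0572 in edgeR). The same held with the GC trend removed (-0.35, adjusted p = 0.0724 in edgeR) and with the length trend removed (-0.31, adjusted p = 0.0666 in edgeR). Its adjusted p ran from 1.11e-05 to 0.723 over the alternatives. Mx1 belongs to the dynamin-like GTPases and is a transcribed pseudogene in the RefSeq annotation of the reference strain, as is Mx2. Mx1 was at 51.0, 42.4 and 34.9 CPM and at 24.2, 20.03 and 21.8 CPM (log2 fold change -0.96, SE 0.14, adjusted p = 0.000163 in edgeR).

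Mx2 was the member that rose: it was at 10.7, 8.77 and 8.70 CPM in Control 1 to 3 and at 12.6, 12.2 and 12.4 CPM in TMAO 1 to 3, 1.32-fold higher (log2 fold change 0.40, SE 0.13, adjusted p = 0.0155 in edgeR). Without Control 2 or Control 3 it lost its call (log2 fold change 0.36 and 0.34, adjusted p = 0.0609 and 0.0667 in edgeR; range over the alternatives 0.00841 to 1). Isg20, an exonuclease of single-stranded RNA, was at 7.80, 7.32 and 5.09 CPM and at 8.43, 9.93 and 8.53 CPM (log2 fold change 0.41, SE 0.17, adjusted p = 0.057 in edgeR). Its groups did not overlap, as in 71.0% of all genes tested, although it did not pass the test. Once the length trend was removed its log2 fold change was -0.02 (adjusted p = 0.921 in edgeR; range over the alternatives 0.0239 to 0.921). Chemokines and enzymes that both interferon and NF-kB induce mostly rose, with a median log2 fold change of 2.24. Of 11, 7 rose and 2 fell, against 33.0% and 32.7% of all genes tested. Cxcl10, a chemokine for T cells, rose from 12.5 ± 3.59 to 83.9 ± 2.79 CPM (n = 3 per group, adjusted p = 7.06e-07 in edgeR).

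Of 6 nuclear body and chromatin factors, 5 fell, against 32.7% of all genes tested. Sp100, a scaffold of PML nuclear bodies, was at 193, 176 and 167 CPM in the controls and 56.0, 53.5 and 54.2 CPM with TMAO (log2 fold change -1.71, SE 0.09, adjusted p = 1.35e-07 in edgeR). Sp110, of the same family, was at 70.1, 69.9 and 48.9 CPM and at 23.1, 20.6 and 33.3 CPM (log2 fold change -1.29, SE 0.19), with TMAO 3 the highest TMAO library. Phf11b was at 24.98, 20.1 and 17.98 CPM and at 5.73, 6.27 and 6.73 CPM (log2 fold change -1.75). Phf11b and Phf11d, both PHD finger genes, are neighbours and related copies, so reads may have been split between them. Phf11d was at 21.1, 17.9 and 17.5 CPM and at 6.38, 5.58 and 5.84 CPM (log2 fold change -1.66). Helz2, a helicase coactivator, was at 151, 116 and 136 CPM and at 99.4, 76.0 and 84.6 CPM (log2 fold change -0.63, SE 0.13, adjusted p = 0.00126 in edgeR). It has the longest transcript of the members, 10109 nt, and with the length trend removed it was not called and its direction turned (log2 fold change 0.10, adjusted p = 0.315 in edgeR; range over the alternatives 1.3e-08 to 0.325). Daxx, a histone chaperone of PML bodies, was at 69.8, 65.1 and 58.4 CPM and at 67.3, 75.1 and 73.8 CPM, missed the threshold (log2 fold change 0.16, adjusted p = 0.164 in edgeR) and turned direction with the GC trend removed (-0.07, adjusted p = 0.488 in edgeR; range over the alternatives 0.0954 to 1).

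Of the 7 remaining interferon-stimulated genes, 6 fell at least 2-fold, against 14.7% of all genes tested. Lgals3bp, a secreted glycoprotein that binds galectin-3, was the most abundant member in the controls: it was at 1245, 1178 and 1028 CPM in Control 1 to 3 and, below Bst2, at 163, 156 and 169 CPM in TMAO 1 to 3 (log2 fold change -2.82, SE 0.10, adjusted p = 1.31e-08 in edgeR). Ifi44 was the least abundant with TMAO, at 9.39, 7.66 and 6.64 CPM and at 1.11, 1.32 and 0.939 CPM (log2 fold change -2.81, SE 0.20), which are 274 to 365 and 36 to 48 counts. Lgals3bp was 7.07-fold and Ifi44 7.02-fold lower with TMAO, at very different abundance. Epsti1 was at 108, 103 and 83.2 CPM and at 19.1, 18.7 and 22.2 CPM (log2 fold change -2.29). Ifi27l2a, which encodes a small hydrophobic membrane protein, was at 76.6, 83.1 and 55.5 CPM and at 16.2, 18.3 and 17.9 CPM (log2 fold change -2.04). Xaf1, an antagonist of the caspase inhibitor XIAP, was at 71.8, 61.4 and 57.0 CPM and at 24.1, 26.6 and 27.5 CPM (log2 fold change -1.28). The groups of these genes did not meet in any library, as in 71.0% of all genes tested. Tor3a, an ATPase of the endoplasmic reticulum, was at 167, 147 and 132 CPM and at 62.8, 64.6 and 70.1 CPM (log2 fold change -1.18). Ifi35, a leucine zipper protein, was at 29.1, 32.2 and 22.8 CPM and at 25.3, 42.4 and 34.7 CPM, with overlapping groups and no call (log2 fold change 0.28, SE 0.18, adjusted p = 0.197 in edgeR). Without TMAO 1 it was called higher (0.46, adjusted p = 0.0145 in edgeR), and under the length correction its direction turned (-0.12, adjusted p = 0.471 in edgeR; range over the alternatives 0.0145 to 1).

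The members also moved together among the control libraries. Control 1 was the highest control in 44 of 47 members and in 24.9% of all genes tested, and Control 3 was the lowest in 34 members and in 35.4% of all genes. Relative to the mean of the controls on log2 CPM, the median member lay at 0.18 in Control 1, -0.02 in Control 2 and -0.16 in Control 3, where the median gene of the table lay between -0.001 and 0.005. In the TMAO libraries the medians of the members lay between -0.026 and 0.032 and those of all genes between -0.011 and 0.021. The spread in the controls was largest in Ifit3, at 28.2% of the mean, and in Zbp1 and Ifit2, at 25.2% and 25.1%, and Irf9 had the smallest at 2.44%. Without Control 1, 41 members were called lower and 2 higher, with a median log2 fold change of -1.585.

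**Figure D4:**
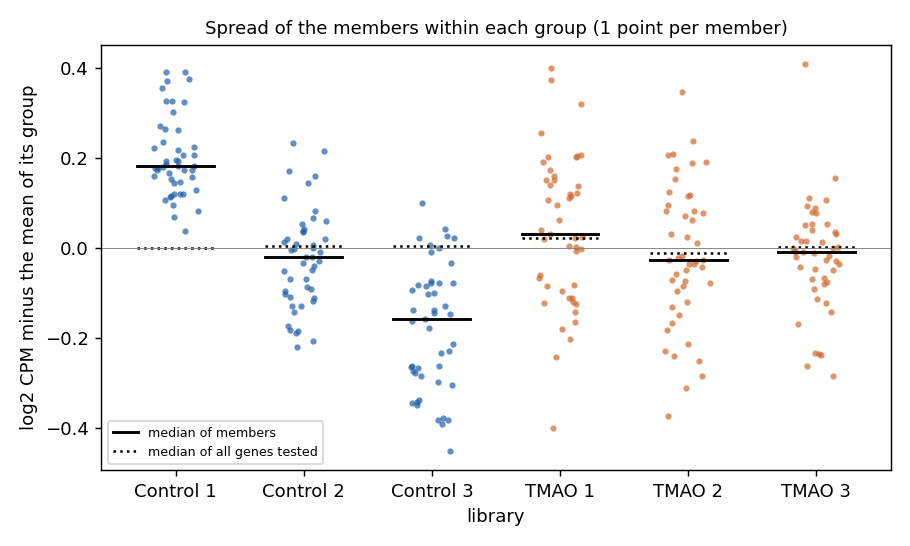
Log2 CPM of each member minus the mean of its group, 1 point per member, in the 6 libraries. Solid lines are the medians of the members and dotted lines those of all genes tested. In Control 1 the members sit above the dotted line (median 0.18), in Control 3 mostly below it (median -0.16), and in the TMAO libraries around it.

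Transcript length varied with the differences in the whole table (r = -0.24 between log10 length and log2 fold change over 14598 genes, which are not independent). Genes with transcripts of at most 1526 nt had a median log2 fold change of 0.49, and those of at least 4928 nt one of -0.53. The 6 members of at most 1526 nt had a median of -0.71, with 3 called lower, and the 8 of at least 4928 nt a median of -1.80, all called lower. Across the 47 members, which are not independent, the log2 fold change correlated with log10 length at r = -0.26, with GC content at r = 0.44 and with log2 control CPM at r = -0.37. The last of these shares the control libraries on both axes. No correlation over all genes was computed for GC content or control CPM, so neither is shown to be particular to the members. With the length trend removed, 41 members were called lower, 40 of them among the 42, and with the GC trend removed, 41, all among the 42.

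The families set apart from this list fell as well, to different extents. All 9 OAS and RNase L genes were called lower, with a median log2 fold change of -1.82, and 9 of 11 tested PYHIN genes were, with a median of -1.13. Of 12 tested guanylate-binding proteins and immunity-related GTPases, 7 fell and 2 rose (32.7% and 33.0% of all genes tested), with a median of -0.94. Whether these medians differ from that of the 47 members was not tested.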

How the data were processed

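Gene counts came from poly(A)-selected, paired-end RNA-seq of 6 libraries, per the labels' protocols. The authors deposited raw counts per Ensembl gene; the submitters' processing notes name GRCm39 as build, and the sources used here give no aligner, counting tool, strand setting or annotation. The protocol names sequencers of 2 makers without assigning libraries, so a platform difference between the groups cannot be told apart from TMAO.

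Groups and replicate numbers came from titles, and columns were matched through the sample descriptions. Symbols were given to 25386 gene IDs from GENCODE M21 (build GRCm38), also used for length and GC of the longest transcript; 365 IDs had none. edgeR 4.0.16 (R 4.3.3, limma 3.58.1) used filterByExpr (minimum count 10), TMM and the quasi-likelihood F test in its default, legacy moderation, two-sided, with Benjamini-Hochberg adjustment over all genes and a threshold of 0.05. Each SE was taken as the size of the log2 fold change over the root of its F. The reported fit and some of the alternatives were run on simulated counts in which few genes were changed. That simulation did not cover a shift as wide as that of these data. Libraries of a group differed beyond sampling noise (chi-square per degree of freedom 13.0 to 65.6). Alternatives included DESeq2 1.42.0 and limma-voom. All members are named; other lists contribute up to 3 genes with the smallest p, plus Ifnb1, Ifnar1 and Ifnar2; 1 further gene that the rule names is not reported here. Members and lists were chosen with earlier results of these data known.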

Additional observations from a re-analysis of the deposited data

How the results depend on the processing

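Of 47 members, 38 kept their direction and their side of the threshold under all 18 alternatives, and 821 of 846 member values did so. The count of members lower with TMAO was 38 in the test against a fold of 1.5, where Irf9, Rsad2, Cmpk2 and Helz2 lost their calls to the stricter threshold, and 41 to 43 with 1 library left out. The count of members higher was 1 in the reported fit. It was 2 with DESeq2, limma-voom, no filter on low counts or a filter of 1 CPM in 3 libraries, each time with Isg20 added, and 0 in the test against a fold of 1.5. With 1 library left out it ran from 0 (without Control 2 or Control 3) over 2 (without Control 1) to 3 (without TMAO 1). With the replicate block it was 2 and the count lower was 42. Directions turned for Isg20 (-0.0178), Helz2 (0.10) and Ifi35 (-0.12) with the length trend removed and for Daxx (-0.0684) with the GC trend removed, as log2 fold changes; these 4 values were not called, and the cause was not tested. Deviations of same-numbered libraries correlated at 0.032, 0.133 and -0.067, and the highest correlation was that of Control 3 with TMAO 1 (0.159). With 3 libraries per group, these values cannot tell whether the libraries were paired. Ifi44, at 36 to 48 counts in the TMAO libraries, was the member most limited by depth. The alternatives that removed trends left out 28 genes without a transcript length.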
